A study of Mus with 12 samples.

Results

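The genes described here encode the subunits of oxidative phosphorylation, the mitochondrial machinery that turns the electrons of NADH and succinate into ATP. They were chosen by name: gene symbols that begin with Nduf, Uqcr, Atp5 or Cox4 to Cox8 and a letter, Sdha to Sdhd, Cycs, and the mitochondrial genes for Nd, Co, Atp and Cytb proteins, without pseudogene symbols. Of 55487 mouse genes in the table, 112 rows matched, and 102 reached 1 FPKM (fragments scaled to the length of the transcript and the size of the library) in at least 2 libraries, of 13396 genes that did. These 102 members hold 89 nuclear-encoded and 13 mitochondrial-encoded genes. The Nduf prefix also takes in 8 assembly factors of complex I (Ndufaf genes), which build the complex but are not part of it. Cyc1 and Atpif1 lie outside the name rule and were counted apart.

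The cells were CD8 T cells taken as naive cells from mouse spleen and cultured for 20 h with plate-bound anti-CD3 at 1 µg/ml, anti-CD28 at 2 µg/ml and IL-2 at 100 U/ml, in medium whose 10% serum had been stripped of retinoids by charcoal. The 6 groups were WT, BATF-KO (cells that lack the AP-1 factor BATF) and RARα-KO (T cells that lack retinoic acid receptor α through a distal Lck-driven Cre and a floxed Rara gene), each without RA (all-trans retinoic acid) and with RA at 15 nM, with 2 libraries per group and 12 in all. Every group thus shared the same activation and the same stripped serum. All libraries carry the strain label C57BL/6, and RA was read from the ending of the sample titles, since their treatment field does not tell RA libraries from the others. The study kept C57BL/6 and dLck-Cre mice as WT controls and used mice aged 6 to 10 weeks for most of its work. It began with both sexes and later turned mainly to males. Which of these controls and which sex served for the present libraries is not given in the sources used here. Nor is it given whether the replicates were separate mice, so p-values measure only the spread between these libraries. The comparisons asked what the loss of each factor and the addition of RA changed.

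Batf was at 4.05 to 4.90 FPKM in the 4 BATF-KO libraries and at 19.1 to 24.5 FPKM in the 4 WT libraries. Rara was at 13.7 to 17.9 FPKM in RARα-KO and at 11.7 to 14.6 FPKM in WT, and since the floxed line keeps a shortened Rara transcript, this gene-level value does not test the deletion. The 10 CD8 T cell markers summed to 2820 to 3550 FPKM in RARα-KO, 3480 to 4290 FPKM in WT and 3640 to 4380 FPKM in BATF-KO, and averaged over both media 1 of the 10 was higher in RARα-KO than in WT, with 0 called. All 12 B cell markers were called higher in RARα-KO, where they summed to 914 to 1140 FPKM against 269 to 470 FPKM in WT, and 7 of 8 NK and innate-like markers and 4 of 8 myeloid markers were called higher as well. The 5 erythroid markers summed to 143 to 502 FPKM in the replicate 1 libraries and to 11.3 to 28.7 FPKM in the replicate 2 libraries of all genotypes. The files hold no counts. Depth relative to the deepest library, RARα-KO replicate 2, was estimated from the steps between low FPKM values and ran from 0.744 to 1, and FPKM summed to 745841 to 805153 per library.

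In the inner mitochondrial membrane, complex I (NADH dehydrogenase) and complex II (succinate dehydrogenase) pass electrons to ubiquinone, complex III passes them to cytochrome c, and complex IV (cytochrome c oxidase) passes them to oxygen. Complexes I, III and IV pump protons, and complex V (ATP synthase) uses the gradient to make ATP. Complexes I, III, IV and V each join subunits made from nuclear genes with subunits made from mitochondrial DNA, which is transcribed as long precursors cut into single mRNAs, whereas complex II is wholly nuclear-encoded. Activated CD8 T cells raise both glycolysis and mitochondrial respiration as they begin to divide.

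All complexes were expressed in every library. The nuclear-encoded members had a median of 125 FPKM over the 12 libraries, against 13.6 FPKM for all genes tested, and the mitochondrial-encoded members had a median of 1580 FPKM. Atp5b, the catalytic β subunit of ATP synthase, was the highest nuclear-encoded member at 2876 to 4075 FPKM. In complex I, Ndufa6 was highest (368 FPKM on average) and Ndufb4 lowest (24.9 FPKM), although Ndufb4 has a near-identical relative, Ndufb4c, listed at 231 to 342 FPKM, so the split of reads between the 2 is uncertain. The assembly factors lay lower, from 6.84 FPKM for Ndufaf3 to 36.1 FPKM for Ndufaf2. Complex III ran from Uqcrfs1 (the Rieske iron-sulfur protein, 89.7 FPKM) to Uqcrh (366 FPKM), and complex V from Atp5j2 (102 FPKM) to Atp5b.

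Complex II had the fewest members. Sdha, the flavoprotein that binds succinate, was at 198 to 241 FPKM, and Sdhb, the iron-sulfur subunit, at 103 to 149 FPKM. The membrane anchors Sdhc and Sdhd were at 32.9 to 47.1 and 68.9 to 100.1 FPKM. The levels of all 4 subunits overlapped between the 3 genotypes.

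Where a subunit has tissue-specific forms, 1 form made up nearly all of the signal. Cox4i1 was at 383 to 506 FPKM and Cox4i2, a form best known from lung, at 0 to 0.19 FPKM. Cox6a1 was at 374 to 537 FPKM and its muscle form Cox6a2 at 0 to 0.55 FPKM. Cox6b1 was at 107 to 164 FPKM and the testis form Cox6b2 at 2.39 to 7.06 FPKM.

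Cox7a1, the heart and muscle form of subunit 7a, was at 0 to 0.63 FPKM, while Cox7a2 and the related Cox7a2l were abundant. Cox8a was at 545 to 825 FPKM, while Cox8b and Cox8c were listed at 0 throughout. Ndufa4, counted here with complex I by its name but now regarded as a subunit of complex IV, was at 227 to 344 FPKM and Ndufa4l2 at 0 to 0.08 FPKM. The 3 genes that encode the same mature c subunit of the ATP synthase ring were all present: Atp5g3 averaged 338 FPKM, Atp5g2 averaged 218 FPKM and Atp5g1 averaged 116 FPKM. Cox6c2 was at 0 in 10 libraries and passed the filter only through RARα-KO replicate 2, at 1.09 FPKM without RA and 1.13 FPKM with RA. The other rows below the filter were Cox7b2, Ndufa11b, Ndufs6b and a second Atp5o entry.

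The 3 members called in RARα-KO cells were mt-Nd3, listed higher, and Cox7a2l and Cox7a2, listed lower. Each passed limma's moderated test, adjusted by the Benjamini-Hochberg method over all genes tested, at an adjusted p under 0.05 without RA, with RA and averaged over both media. Without RA 1 member rose and 2 fell, where 2.78% of all genes rose and 0.515% fell. With RA the counts were the same, where 3.24% rose and 0.523% fell, and averaged over both media they were the same again, where 5.29% rose and 1.31% fell. So 1 in 102 members rose, a share below that of all genes, and 2 in 102 fell. For mt-Nd3 and Cox7a2l a gene model moved in the opposite direction, as given below, and whether reads were shared was not tested.

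mt-Nd3 (ENSMUSG00000064360, mitochondrial DNA 9459 to 9806 in the RefSeq annotation of GRCm38) encodes ND3, a membrane subunit of complex I. The WT libraries held 27.7 and 37.1 FPKM (32.4 ± 6.7, SD, n = 2), and those of WT+RA 54.3 and 44.8 FPKM. BATF-KO libraries held 38.7 and 37.9 FPKM, and 34.9 and 41.8 FPKM after RA. RARα-KO libraries held 1310 and 1105 FPKM, and 1224 and 921 FPKM after RA. All 4 RARα-KO libraries lay far above the other 8. The log2 fold change (of FPKM + 1, as throughout) against WT was 5.19 ± 0.19 (SE, limma adjusted p = 7.56e-07) without RA and 4.40 ± 0.19 (adjusted p = 2.97e-06) with RA.

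Gm28438 moved in the opposite direction. It belongs to a list of 7 nuclear gene models close in sequence to mitochondrial DNA, although the files call it only a predicted gene and do not say which mitochondrial gene it resembles. The WT libraries held 1110 and 1249 FPKM, the WT+RA libraries 1191 and 1251 FPKM, and the 4 BATF-KO libraries 1231 to 1335 FPKM. RARα-KO libraries held 13.7 and 31.5 FPKM, and 25.5 and 33.7 FPKM after RA. Its log2 fold change against WT, averaged over both media, was -5.54 ± 0.21 (limma adjusted p = 4.37e-07), beside 4.79 ± 0.14 (adjusted p = 5.36e-08) for mt-Nd3. The sum of mt-Nd3 and Gm28438 was 955 to 1324 FPKM in RARα-KO and 1137 to 1373 FPKM in the other 8 libraries. The ranges of the sums overlapped where those of the single genes did not. Gm28438 was chosen after its values were seen, so the sum does not test shared reads. Whether reads were shared between the 2 gene models, and the part of this in the mt-Nd3 value, was not tested. Of the other 6 models 1 was called, Gm29216, which was lower in RARα-KO with RA (-1.18 ± 0.27, adjusted p = 0.0479) and whose highest value, 198 FPKM, came from WT+RA replicate 1.

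Cox7a2l (ENSMUSG00000024248, chromosome 17, 83501917 to 83514333) encodes a relative of subunit 7a described as a factor that joins complexes III and IV into supercomplexes. Neither its protein nor supercomplexes were measured here. The WT libraries held 510 and 336 FPKM (423 ± 120, SD, n = 2), the WT+RA libraries 421 and 311 FPKM, and the 4 BATF-KO libraries 345 to 398 FPKM. RARα-KO libraries held 167 and 110 FPKM, and 158 and 108 FPKM after RA, below every other library. The log2 fold change against WT was -1.60 ± 0.27 without RA (limma adjusted p = 0.0105), -1.46 ± 0.27 with RA (adjusted p = 0.0153) and -1.53 ± 0.19 over both media (adjusted p = 0.000872).

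The averaged call for Cox7a2l held in each of 22 alternative settings, but the calls in single media did not. Without RA the adjusted p was 0.0839 when WT replicate 1 was left out and 0.0805 without RARα-KO replicate 2. With RA it was 0.144 without WT+RA replicate 1 and 0.131 without RARα-KO+RA replicate 2. In both WT and RARα-KO the replicate 1 libraries were the higher ones.

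A gene model chosen after its values were seen, Gm13841, moved against Cox7a2l. It was at 2.39 to 5.97 FPKM in the 8 WT and BATF-KO libraries and at 303 to 435 FPKM in the 4 RARα-KO libraries (log2 fold change over both media 6.20 ± 0.23, limma adjusted p = 3.68e-07). Summed, Cox7a2l and Gm13841 were at 315 to 512 FPKM in WT, 350 to 404 in BATF-KO and 471 to 545 in RARα-KO. The sum was not lower in RARα-KO, but Gm13841 was picked with its values known, so the sum does not test shared reads. FPKM is also scaled to the length of each transcript. The annotation used here lists Gm13841 as a pseudogene on chromosome 5 and names no parent gene, and whether it shares reads with Cox7a2l was not tested.

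Cox7a2 (ENSMUSG00000032330, chromosome 9, 79755241 to 79771422) encodes the form of subunit 7a used outside heart and muscle. The WT libraries held 115 and 133 FPKM, and those of WT+RA 144 and 148 FPKM. BATF-KO libraries held 121 and 145 FPKM, and 130 and 167 FPKM after RA. RARα-KO libraries held 52.8 and 57.5 FPKM, and 56.2 and 56.9 FPKM after RA, so that the 4 libraries lay close together and below the rest. The log2 fold change was -1.15 ± 0.15 without RA (limma adjusted p = 0.00273), -1.35 ± 0.15 with RA (adjusted p = 0.00118) and -1.25 ± 0.11 over both media (adjusted p = 9.71e-05).

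**Figure D1:**
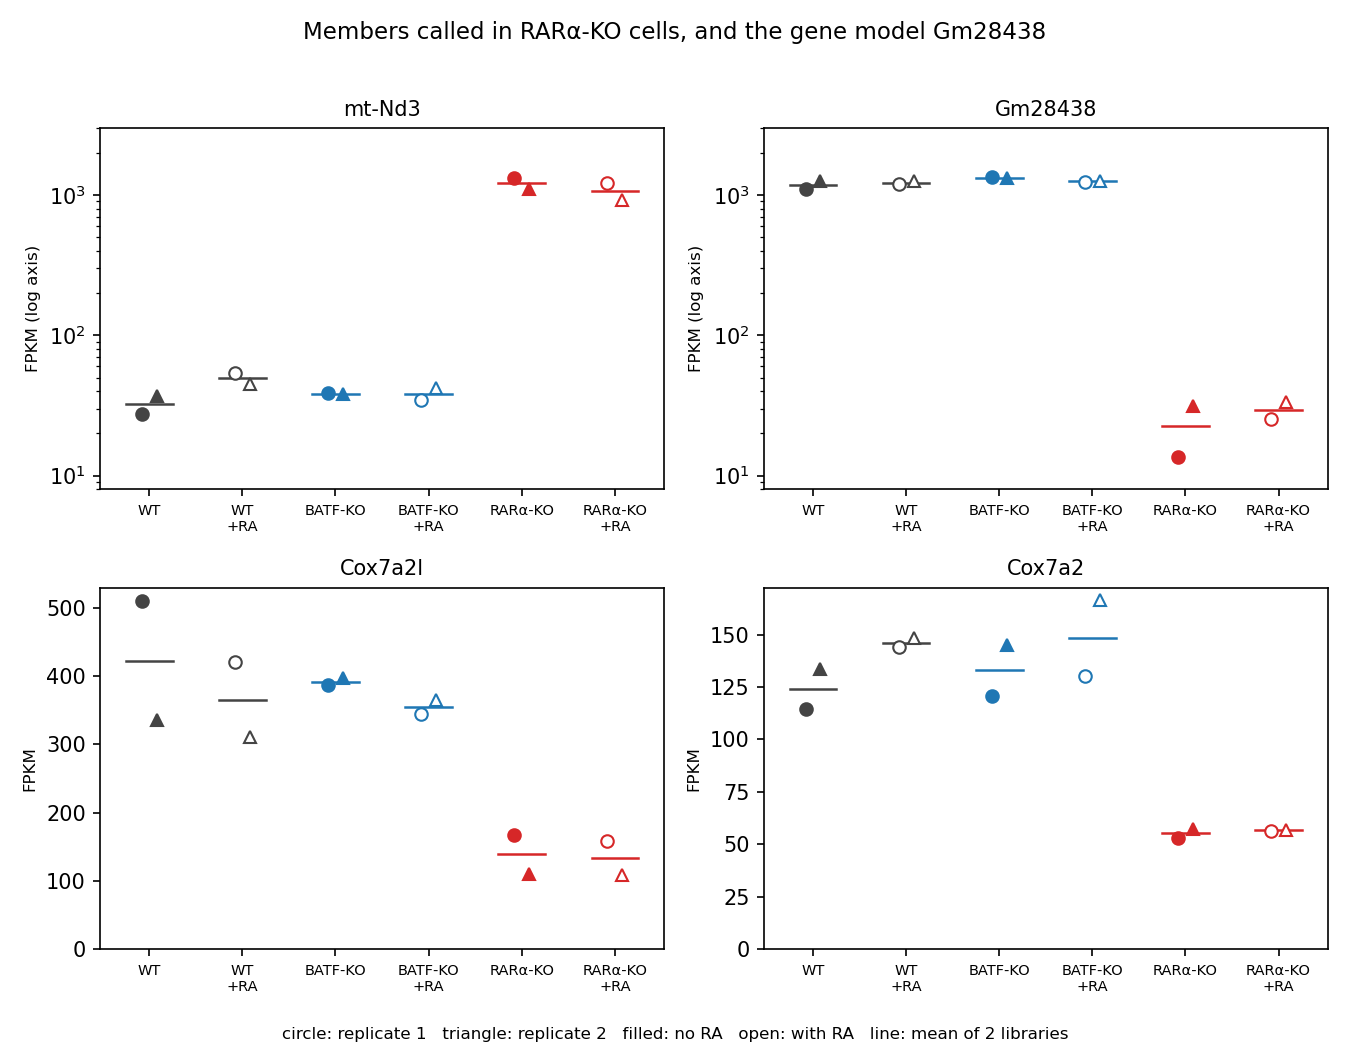
FPKM of mt-Nd3 and of the gene model Gm28438 (log axes), and of Cox7a2l and Cox7a2 (linear axes from 0), in the 12 libraries by group; points are libraries and lines are means of 2. mt-Nd3 was at 921 to 1310 FPKM in RARα-KO and at 27.7 to 54.3 FPKM elsewhere, Gm28438 showed the reverse, and the RARα-KO libraries lay below all others for Cox7a2l and Cox7a2. Whether mt-Nd3 shared reads with Gm28438, or Cox7a2l with Gm13841, was not tested.

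The remaining members differed little between RARα-KO and WT. Averaged over both media, 84 of 102 members were lower in RARα-KO, with a median log2 fold change of -0.11, where 6948 of 13396 genes were lower and the median of all genes was -0.0093. In 10 members the 4 RARα-KO libraries all lay below the 4 WT libraries (4.48% of all genes did), and in 1 member, mt-Nd3, all lay above (8.09% of all genes did). Among those lying below were Cox7a2 and Cox7a2l, which were called, and Cox4i1, Uqcrh, Atp5j, Ndufa7, Ndufb5, Ndufb11 and Ndufv3, which were not.

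Atp5j, coupling factor 6 of ATP synthase, came closest to a further call. Its level was 212 and 236 FPKM for WT against 184 and 192 FPKM for RARα-KO, and after RA 268 and 241 FPKM for WT against 176 and 186 FPKM for RARα-KO. Its log2 fold change over both media was -0.37 ± 0.099 (limma adjusted p = 0.0608), which passed after quantile normalization (0.0182), with a replicate block across genotypes (0.022) and without BATF-KO replicate 1 (0.0469) or BATF-KO replicate 2 (0.0468). Ndufv3, a small subunit of the NADH-binding arm of complex I, was at 128 to 148 FPKM in WT and at 99.5 to 117 FPKM in RARα-KO (-0.35 ± 0.11, adjusted p = 0.0997, and 0.0378 with that block). Ndufc1, a membrane-arm subunit, had -0.36 ± 0.13 (adjusted p = 0.195).

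Ndufc2, the partner of Ndufc1 in the membrane arm, differed in the other direction, at 0.73 ± 0.28 (limma adjusted p = 0.215, and 0.0113 with a replicate block across genotypes). The WT libraries held 35.2 and 76.4 FPKM, and those of WT+RA 43.4 and 81.0 FPKM. RARα-KO libraries held 78.9 and 106 FPKM, and 90.4 and 98.0 FPKM after RA, and the 4 BATF-KO libraries 59.5 to 96.2 FPKM. The 2 WT replicate 1 libraries were the lowest of the 12. In the other complexes the members with the smallest p were Uqcrh in complex III (-0.22 ± 0.10, adjusted p = 0.323), Sdhc in complex II (-0.18 ± 0.11, adjusted p = 0.494) and, among the assembly factors, Ndufaf6 (-0.31 ± 0.19, adjusted p = 0.498). Cycs stood at 0.076 ± 0.16 (adjusted p = 0.881), and its sign depended on RARα-KO replicate 2.

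The downward lean was found with RA present. There 36 of 38 complex I members were lower in RARα-KO (median log2 fold change -0.23), as were 4 of 4 in complex II (-0.28), 7 of 8 in complex III (-0.24), 10 of 13 in complex IV (-0.23) and 17 of 17 in complex V (-0.21). Of all 102 members 14 had an unadjusted p under 0.05, as did 1654 of 13396 genes. The median of the 89 nuclear-encoded members was -0.22 with RA, and -0.012 without RA, where 40 of them were higher and 49 lower. With RA, 6 to 20 of the 89 were higher with each library left out, whereas without RA 11 were higher when WT replicate 1 was left out and 65 when RARα-KO replicate 1 was. Subunits of 1 complex are not independent of each other, so these counts describe the lists and carry no test. After rescaling to TPM, centring on the median or quantile normalization, 6 to 15 of the 89 were higher in RARα-KO with RA, and without RA 33 to 47 were.

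The B cell, NK and myeloid marker sums were higher in RARα-KO than in WT, and the sum of the CD8 T cell markers ran lower with overlap. The B cell marker sums were higher in both media. The nuclear-encoded members leaned lower with RA, and without RA their direction changed with the library left out. The part of these markers in the member values was not tested. In bulk RNA fewer cells of a type and less RNA per cell cannot be told apart.

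**Figure D2:**
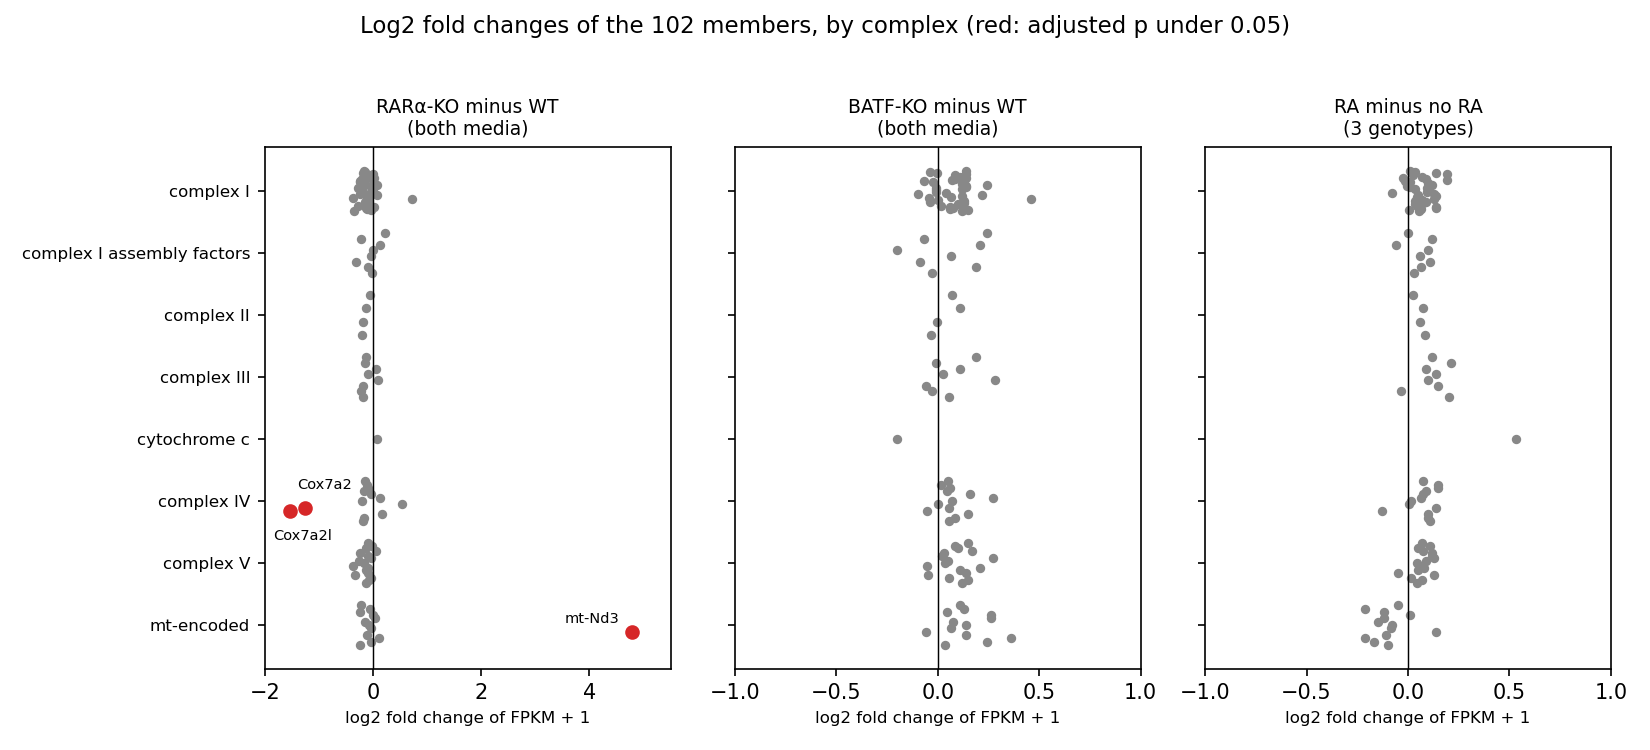
Log2 fold change of FPKM + 1 for each of the 102 members, by complex, for RARα-KO against WT, BATF-KO against WT and RA against no RA, each averaged; a point is a gene, and red marks an adjusted p under 0.05 (the left panel has a wider axis). mt-Nd3 (4.79), Cox7a2l (-1.53) and Cox7a2 (-1.25) stand apart in RARα-KO, and no member is called in the other 2 panels.

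In BATF-KO no member was called against WT. The counts were 0 without RA, where 0.0523% of all genes were called, 0 with RA, where 0.0672% were, and 0 averaged over both media, where 0.291% were. At an unadjusted p under 0.05, limma gave 1 member in each of the 3 comparisons, and 521, 640 and 1075 of 13396 genes. Without RA 92 of 102 members were higher in BATF-KO, with a median log2 fold change of 0.14 against 0.0044 for all genes, and with RA 58 were higher, with a median of 0.016. Of the 89 nuclear-encoded members 79 were higher without RA, but 43 were when BATF-KO replicate 2 was left out and 52 when WT replicate 1 was.

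In no member did the 4 BATF-KO libraries lie apart from the 4 WT libraries, on either side, where 2.26% of all genes lay below and 3.81% above. The smallest p of the averaged comparison belonged to mt-Nd4l, which encodes a small membrane subunit of complex I. The WT libraries held 3147 and 3284 FPKM against 3231 and 3940 FPKM for BATF-KO, and after RA 2010 and 2641 FPKM for WT against 3227 and 3593 FPKM for BATF-KO (0.36 ± 0.14 over both media, limma adjusted p = 0.519). Nuclear-encoded members with the smallest p in their complexes were Atp5g2 (0.27 ± 0.12, adjusted p = 0.624), Uqcrc2, a core protein of complex III (0.28 ± 0.14, adjusted p = 0.729), Ndufaf3 (0.21 ± 0.11, adjusted p = 0.757), Ndufb10 (0.14 ± 0.084, adjusted p = 0.803), Cox6b1 (0.16 ± 0.14, adjusted p = 0.891), Cycs (-0.20 ± 0.16, adjusted p = 0.890) and Sdhb (0.11 ± 0.13, adjusted p = 0.913).

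The summed levels of the nuclear-encoded complexes rose most with RA in the WT replicate 1 pair, for example from 3899 to 4731 FPKM for complex I. Cycs moved most among the nuclear-encoded members. Cycs (ENSMUSG00000063694, chromosome 6, 50562563 to 50566569) encodes cytochrome c, the carrier between complexes III and IV that also triggers caspase activation when it leaves the mitochondrion. WT libraries held 35.8 and 41.2 FPKM, and 56.8 and 63.5 FPKM after RA. BATF-KO libraries held 28.2 and 38.1 FPKM, and 48.6 and 58.2 FPKM after RA. RARα-KO libraries held 38.2 and 55.1 FPKM, and 47.6 and 65.7 FPKM after RA. Cycs was higher with RA in each of the 6 pairs of the same genotype and replicate number. The groups did not overlap in WT or BATF-KO and did overlap in RARα-KO.

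Averaged over the genotypes, the log2 fold change of Cycs was 0.53 ± 0.13 and did not pass limma's test (adjusted p = 0.231). In WT it was 0.63 ± 0.23 (adjusted p = 0.871), in BATF-KO 0.68 ± 0.23 (adjusted p = 0.957) and in RARα-KO 0.28 ± 0.23 (adjusted p = 1). Cultures of the same genotype and number deviated together, so they were also fitted as pairs, which leaves 3 residual degrees of freedom. In the paired fit Cycs was called in WT (adjusted p = 0.0278), in BATF-KO (adjusted p = 0.0182) and averaged over the genotypes (0.53 ± 0.041, adjusted p = 0.00322), and not in RARα-KO (adjusted p = 0.674). The difference of the RA effect on Cycs between RARα-KO and WT was -0.35 ± 0.32 in the unpaired fit (adjusted p = 1) and -0.35 ± 0.10 in the paired fit (adjusted p = 0.537).

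Without the pairs, RA changed 0 members in WT (0.0672% of all genes called), 0 in BATF-KO (0.157%), 0 in RARα-KO (0.00746%) and 0 averaged over the genotypes (0.478%). At an unadjusted p under 0.05 limma gave 4, 2, 0 and 1 members, and 659, 440, 190 and 810 of 13396 genes. With the pairs, RA changed 1 member in WT (0.523% of all genes), 1 in BATF-KO (0.888%), 0 in RARα-KO (0.0821%) and 2 averaged over the genotypes (3.46%). The second was mt-Atp8, at -0.21 ± 0.040 (adjusted p = 0.0474 paired, 0.961 unpaired). The differences of the RA effect between BATF-KO and WT and between RARα-KO and WT were called for 0 members and 0% of all genes without the pairs, and for 0 members with them. At an unadjusted p under 0.05 limma gave 0 and 1 members without the pairs (1.12% and 1.37% of all genes), and 5 and 14 members with them (5.21% and 8.73%). The 1 was mt-Nd3, at -0.79 ± 0.27 (adjusted p = 1).

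None of the other nuclear-encoded members with the smallest p in their complexes passed the test when RA was averaged over the genotypes. They were Ndufs7 (0.14 ± 0.070, limma adjusted p = 0.891) and, each at an adjusted p of 0.961, Ndufaf2 (0.12 ± 0.14), Sdhd (0.083 ± 0.11), Uqcr11 (0.21 ± 0.13), Cox7a2 (0.14 ± 0.087) and Atp5g2 (0.13 ± 0.099).

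As lists, nuclear-encoded members leaned upward with RA in WT and BATF-KO, and the median of the mitochondrial-encoded members was below 0 in all 6 pairs (-0.18 to -0.011). In WT 82 of 89 nuclear-encoded members were higher with RA in the replicate 1 pair (median log2 difference 0.30) and 68 in the replicate 2 pair (0.064). In BATF-KO the counts were 72 (0.10) and 54 (0.031), and in RARα-KO 45 (0.0012) and 25 (-0.047). The WT median thus rested largely on the replicate 1 pair: it was 0.18 over both and 0.057 when WT replicate 1 was left out. In BATF-KO the median was 0.068 over both, and it was -0.092 without BATF-KO replicate 1 and -0.067 without BATF-KO+RA replicate 2. For all genes tested, the 6 pair medians were -0.0055 to 0.021.

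**Figure D3:**
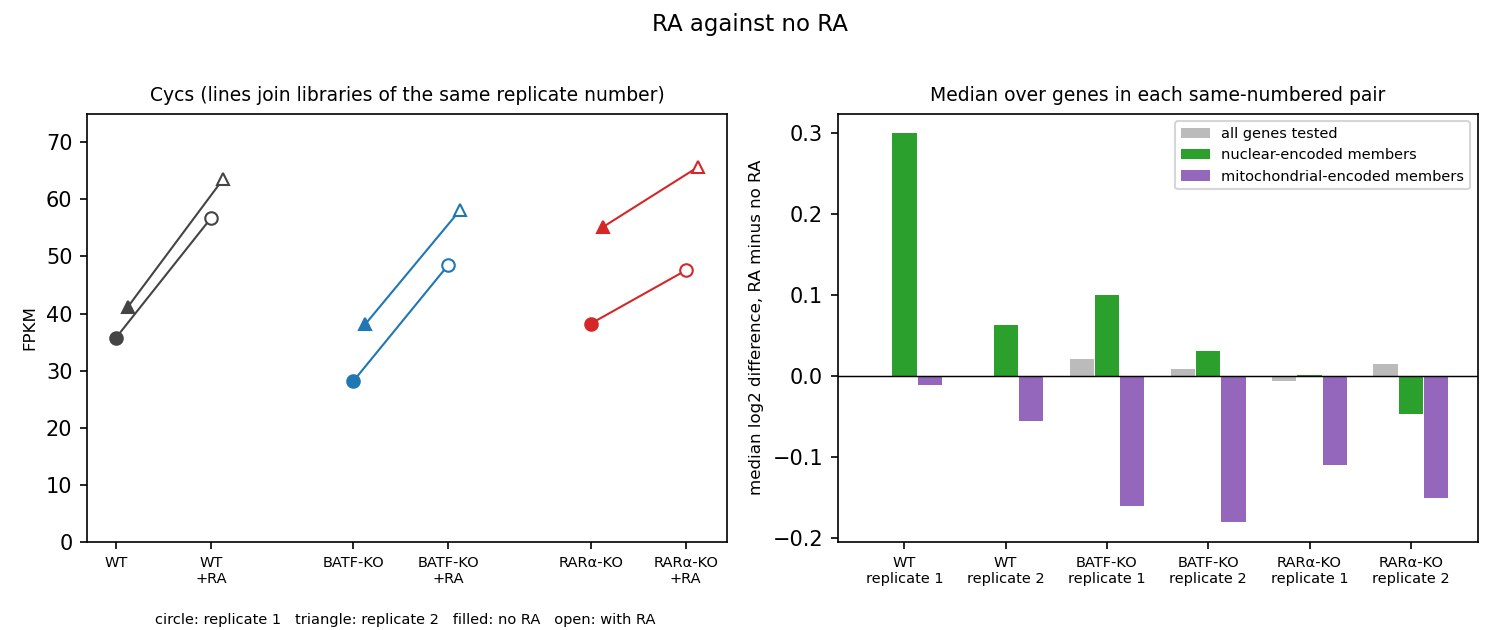
Left, FPKM of Cycs in the 12 libraries, with lines that join the libraries without and with RA of the same genotype and replicate number; Cycs was higher with RA in all 6 pairs. Right, median log2 difference between RA and no RA in each pair for all genes tested, the 89 nuclear-encoded and the 13 mitochondrial-encoded members (bars from 0); the WT replicate 1 pair has the highest nuclear-encoded median (0.30).

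The replicate number itself moved with the nuclear-encoded members. Replicate 2 was higher than replicate 1 for 78 of 89 in WT (median log2 difference 0.22), 85 in BATF-KO (0.29), 83 in BATF-KO+RA (0.24), 72 in RARα-KO (0.21) and 72 in RARα-KO+RA (0.16). WT+RA was the exception, with 43 higher and a median of -0.0028. Over all genes tested, 43.1 to 50.7% were higher in replicate 2, with medians of -0.038 to 0.0056 across the 6 groups. Summed over the 89 genes, WT had 15555 FPKM in replicate 1 and 18221 FPKM in replicate 2, and WT+RA had 19046 and 18604 FPKM. BATF-KO had 16298 and 20230 FPKM, and BATF-KO+RA 17700 and 20809 FPKM. RARα-KO had 15161 and 17315 FPKM, and RARα-KO+RA 15102 and 17374 FPKM. Within each replicate number the 2 RARα-KO sums were the lowest of the 6.

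The spread between replicates was thus as large as the differences between genotypes in these sums. The erythroid markers, which were higher in every replicate 1 library, moved with the replicate number too, and their part was not tested. Complex V made up the largest share of the nuclear-encoded sum (6322 to 8822 FPKM per library), followed by complex I (3873 to 5124 FPKM), complex IV (2800 to 4145 FPKM), complex III (1399 to 1963 FPKM) and complex II (406 to 523 FPKM).

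The 13 mitochondrial-encoded members together reached 28984 to 43410 FPKM, or 3.88 to 5.62% of all FPKM, although they are far fewer than the nuclear-encoded members (2.00 to 2.59%). mt-Atp8, a short gene for a small subunit of ATP synthase, was the highest gene of the whole table on average. Its level was 14911 and 14957 FPKM in WT, 11572 and 12854 FPKM in WT+RA, 16255 and 14677 FPKM in BATF-KO, 15165 and 13016 FPKM in BATF-KO+RA, 16420 and 11778 FPKM in RARα-KO, and 15063 and 9632 FPKM in RARα-KO+RA. It was lower with RA in each of the 6 pairs. mt-Atp8 overlaps the next gene, mt-Atp6, for part of its length, as mt-Nd4l overlaps mt-Nd4, so reads from the shared stretch cannot be assigned with certainty. Nuclear gene models close in sequence to mitochondrial DNA were high too. Gm10925 was at 2857 to 4359 FPKM, Gm28661 at 1940 to 3266 FPKM and Gm28437 at 1650 to 2530 FPKM. Gm10222 was at 296 to 826 FPKM and Gm28439 at 182 to 443 FPKM. Whether these models shared reads with mitochondrial-encoded members, and the part of this in the levels, sums and ratios given here, was not tested.

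mt-Atp6, which forms the proton path of ATP synthase, was far lower than mt-Atp8. Its level was 612 and 573 FPKM in WT, 814 and 522 FPKM in WT+RA, 712 and 800 FPKM in BATF-KO, 537 and 658 FPKM in BATF-KO+RA, 717 and 380 FPKM in RARα-KO, and 532 and 554 FPKM in RARα-KO+RA. No group lay apart from the rest.

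Complex IV has 3 mitochondrial-encoded core subunits. mt-Co1, which holds the site where oxygen is reduced, was at 5373 and 4969 FPKM in WT, 4857 and 4783 FPKM in WT+RA, 5134 and 5818 FPKM in BATF-KO, 4571 and 5124 FPKM in BATF-KO+RA, 5109 and 3800 FPKM in RARα-KO, and 4874 and 3509 FPKM in RARα-KO+RA. mt-Co2, which receives electrons from cytochrome c, was at 811 and 956 FPKM in WT, 1110 and 826 FPKM in WT+RA, 1218 and 1110 FPKM in BATF-KO, 877 and 1247 FPKM in BATF-KO+RA, 1054 and 766 FPKM in RARα-KO, and 985 and 886 FPKM in RARα-KO+RA. mt-Co3 was at 1331 and 1395 FPKM in WT, 1884 and 1237 FPKM in WT+RA, 2175 and 2054 FPKM in BATF-KO, 1217 and 1637 FPKM in BATF-KO+RA, 1631 and 1288 FPKM in RARα-KO, and 1799 and 1277 FPKM in RARα-KO+RA. No genotype lay apart from the others for any of the 3.

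mt-Cytb, the only mitochondrial-encoded subunit of complex III, was at 2412 and 2214 FPKM in WT, 2010 and 2138 FPKM in WT+RA, 2297 and 2629 FPKM in BATF-KO, 2089 and 2249 FPKM in BATF-KO+RA, 2363 and 1763 FPKM in RARα-KO, and 2187 and 1651 FPKM in RARα-KO+RA. It was lower with RA in each of the 6 pairs, and the averaged difference did not pass the test (-0.15 ± 0.11, limma adjusted p = 0.961). mt-Atp8, mt-Co1, mt-Nd4 and mt-Nd5 were likewise lower with RA in each of the 6 pairs. So was mt-Nd4l, though hardly in the BATF-KO replicate 1 pair (log2 difference -0.0017). How many of all genes kept the same sign over the 6 pairs was not counted. Genes cut from shared precursors are not independent of each other, so these signs carry no test.

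Of the complex I genes beside mt-Nd3 and mt-Nd4l, mt-Nd1 was highest. Its level was 3089 and 3465 FPKM in WT, 3255 and 3539 FPKM in WT+RA, 3506 and 4294 FPKM in BATF-KO, 3233 and 3691 FPKM in BATF-KO+RA, 3366 and 3201 FPKM in RARα-KO, and 3209 and 2847 FPKM in RARα-KO+RA. mt-Nd2 was at 2461 and 2715 FPKM in WT, 2442 and 2741 FPKM in WT+RA, 2544 and 3108 FPKM in BATF-KO, 2471 and 2728 FPKM in BATF-KO+RA, 2812 and 2462 FPKM in RARα-KO, and 2583 and 2214 FPKM in RARα-KO+RA. Both were higher in replicate 2 of WT and BATF-KO and lower in replicate 2 of RARα-KO.

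mt-Nd4 was at 1321 and 1264 FPKM in WT, 1243 and 1239 FPKM in WT+RA, 1384 and 1589 FPKM in BATF-KO, 1221 and 1398 FPKM in BATF-KO+RA, 1369 and 1084 FPKM in RARα-KO, and 1327 and 972 FPKM in RARα-KO+RA. mt-Nd5 was at 1541 and 1528 FPKM in WT, 1265 and 1442 FPKM in WT+RA, 1668 and 1936 FPKM in BATF-KO, 1480 and 1733 FPKM in BATF-KO+RA, 1723 and 1285 FPKM in RARα-KO, and 1560 and 1119 FPKM in RARα-KO+RA. mt-Nd6, the single member read from the other strand of mitochondrial DNA, was at 1273 and 1121 FPKM in WT, 1413 and 1089 FPKM in WT+RA, 1222 and 1416 FPKM in BATF-KO, 1091 and 1284 FPKM in BATF-KO+RA, 1254 and 991 FPKM in RARα-KO, and 1140 and 812 FPKM in RARα-KO+RA. mt-Nd4l, given above for the other groups, was at 3429 and 2695 FPKM in RARα-KO and at 3135 and 2592 FPKM in RARα-KO+RA.

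RARα-KO replicate 2 stood apart in this set: all 13 members were lower there than in RARα-KO replicate 1 (median log2 difference -0.35), and with RA 12 of 13 were (-0.41). Of the 12 members other than mt-Nd3, none was called in any RARα-KO or BATF-KO comparison or, without the pairs, in any RA comparison. The median log2 fold change of the 13 in RARα-KO with RA was -0.11, and it was 0.078 when RARα-KO+RA replicate 2 was left out and 0.050 after quantile normalization.

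**Figure D4:**
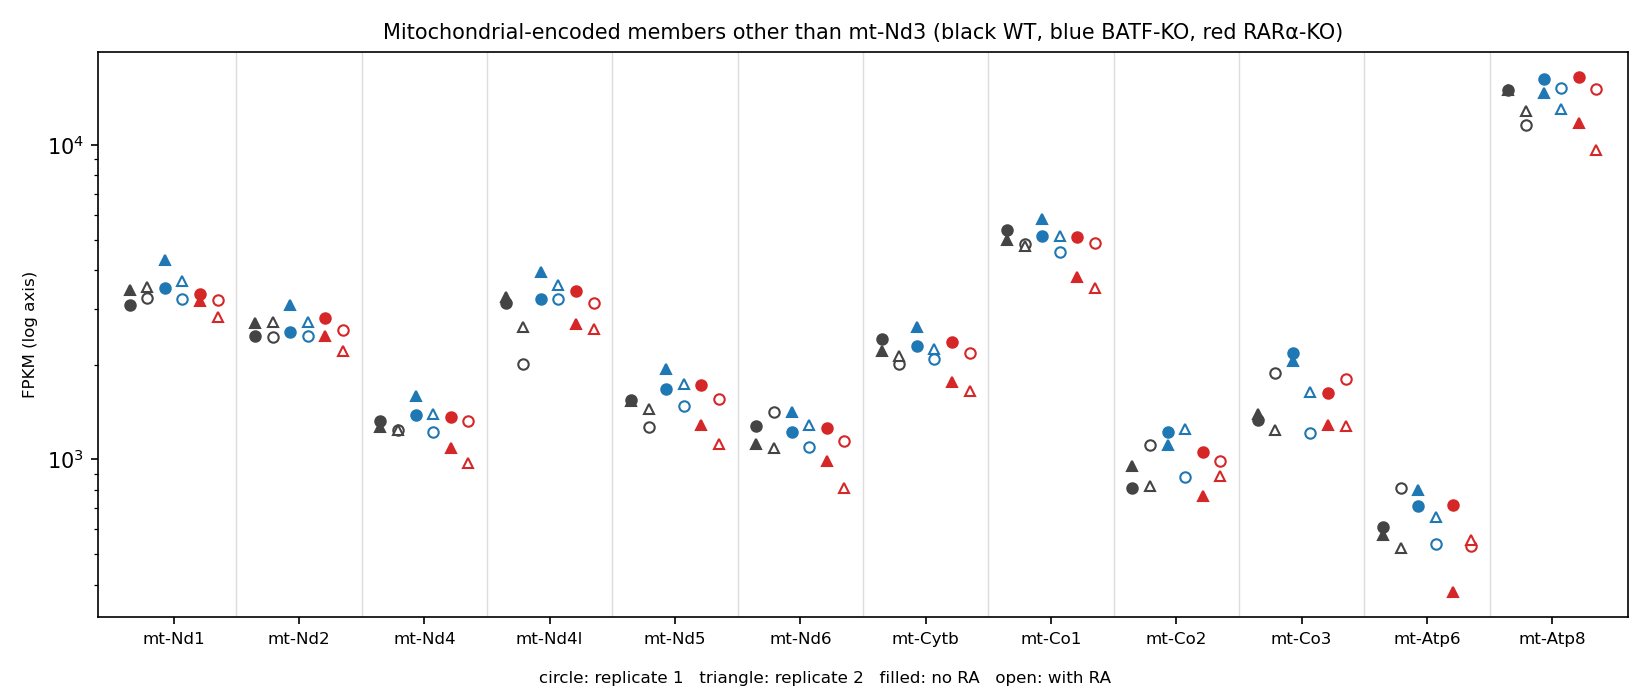
FPKM (log axis) of the 12 mitochondrial-encoded members other than mt-Nd3 in each library; within a gene, groups run from WT to RARα-KO+RA, circles are replicate 1 and triangles replicate 2, and open symbols are cultures with RA. RARα-KO replicate 2 lies below replicate 1 for each gene without RA, and mt-Atp8 lies highest at 9632 to 16420 FPKM.

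The ratio of the mitochondrial-encoded to the nuclear-encoded sum was lower with RA in every pair. It went from 2.46 to 1.78 and from 2.11 to 1.89 in WT, from 2.54 to 2.10 and from 2.15 to 1.85 in BATF-KO, and from 2.81 to 2.62 and from 1.88 to 1.67 in RARα-KO. The mitochondrial-encoded sum was lower with RA in every pair too, and averaged over the genotypes 11 of its 13 members were lower (median log2 fold change -0.11). mt-Atp8, the highest member, weighs most in this sum. By genotype, 7 of the 13 were higher with RA in WT (median 0.001), 0 in BATF-KO (-0.17) and 3 in RARα-KO (-0.1). For the 2 mitochondrial ribosomal RNAs, which come from the same DNA, the median log2 fold change with RA was -0.050. mt-Rnr1 and mt-Rnr2 were at 379 to 395 and 459 to 658 FPKM in WT over both media, and in RARα-KO replicate 2 at 231 to 256 and 314 to 365 FPKM. The labels name both a total RNA kit and poly-A enrichment, which bears on the level of mitochondrial RNA against nuclear mRNA.

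**Figure D5:**
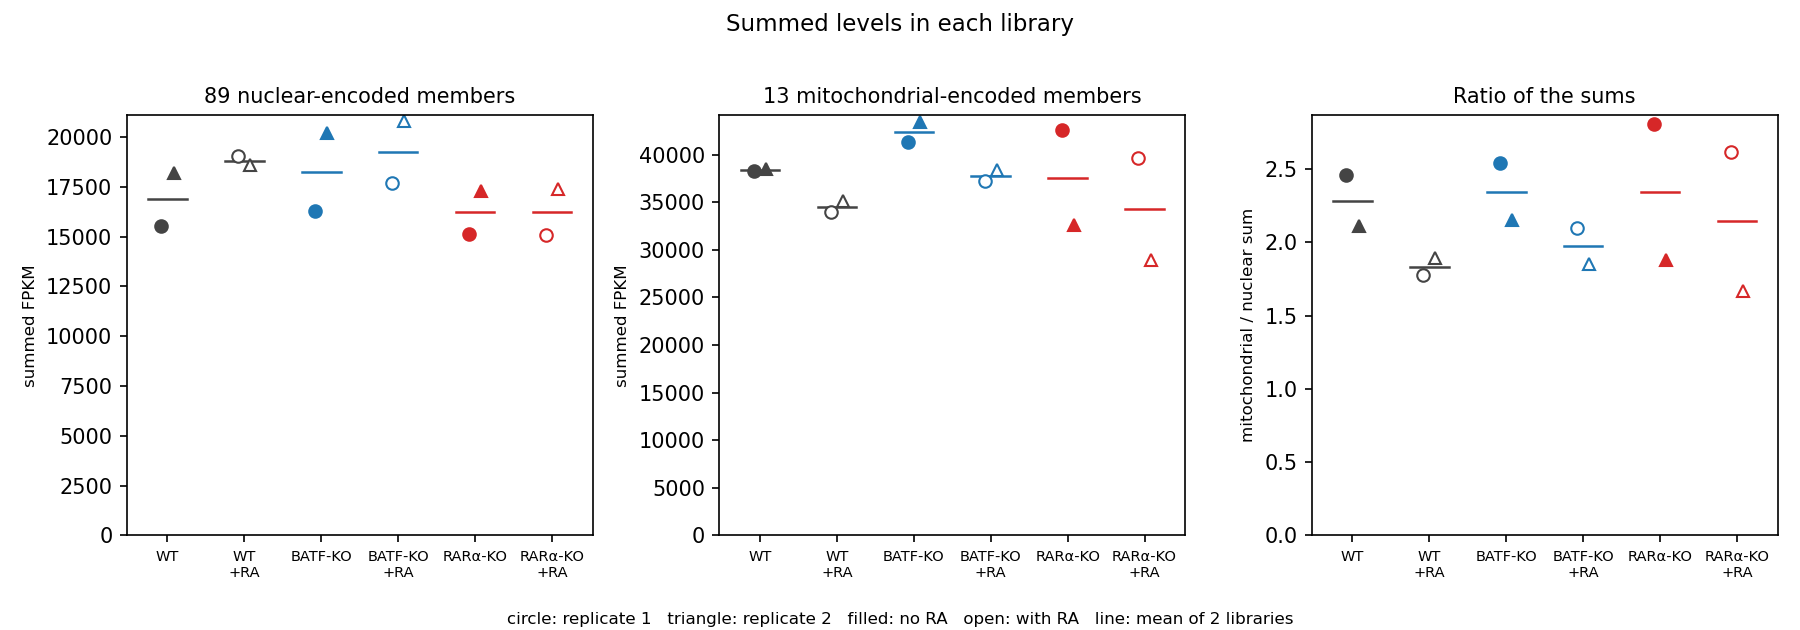
Summed FPKM of the 89 nuclear-encoded members, of the 13 mitochondrial-encoded members, and their ratio, in each library (axes from 0; points are libraries and lines are means of 2). Nuclear-encoded sums run from 15102 to 20809 FPKM, and the ratio, 1.67 to 2.81, is lower with RA in each of the 6 pairs.

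Other genes of the same machinery were counted by list, with all genes as the background. Averaged over both media, 5.29% of them were called higher and 1.31% lower in RARα-KO and 0.291% were called in BATF-KO, and with RA averaged over the genotypes 0.478% were. Of 41 further assembly factors of the complexes 0 were called in either genotype comparison, and 1 rose with RA averaged over the genotypes: Sdhaf1, an assembly factor of complex II (0.52 ± 0.083, limma adjusted p = 0.0321). WT libraries held 12.8 and 12.5 FPKM of Sdhaf1, and 22.6 and 17.0 FPKM after RA. BATF-KO libraries held 12.6 and 12.5 FPKM, and 18.4 and 19.9 FPKM after RA, and RARα-KO libraries 10.2 and 10.9 FPKM, and 14.6 and 13.6 FPKM after RA. It was higher with RA in all 6 pairs without overlap in any genotype. Leaving out any library other than WT+RA replicate 2 ended the call, with adjusted p-values up to 0.137 and log2 fold changes of 0.45 to 0.54. With the pairs the adjusted p was 0.0132.

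Of 9 rows for carriers and other mitochondrial membrane proteins 1 was called. Ucp2, a carrier of the uncoupling protein family, rose in RARα-KO averaged over both media (0.38 ± 0.088, limma adjusted p = 0.0309). Its level was 264 and 270 FPKM in WT, 257 and 271 FPKM in WT+RA, 315 and 383 FPKM in RARα-KO, and 322 and 366 FPKM in RARα-KO+RA. In BATF-KO it was at 307 to 335 FPKM, which lies between those groups and overlaps RARα-KO. The call was lost, at adjusted p-values up to 0.125, after median centring and without any 1 library other than RARα-KO replicate 1 and RARα-KO+RA replicate 1.

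No member was called in the 3 averaged comparisons among 16 genes of the TCA cycle and pyruvate dehydrogenase, 20 genes of mitochondrial transcription and RNA processing, 8 regulators of mitochondrial gene sets or 78 mitochondrial ribosomal proteins. Of the last list 76 were higher with RA averaged over the genotypes (median log2 fold change 0.11), as were 6926 of 13396 genes (median 0.0053). With RA, 68 of 78 were lower in RARα-KO than in WT (median -0.20), as were 6815 of 13396 genes (median -0.0052), where 0 of the 78 were called and 1 had an unadjusted p under 0.05, against 1654 of 13396 genes. A list of subunits outside the name rule held 5 tested genes, of which mt-Cytb, Atp5md and Atp5mpl are members. The remaining 2 were not called: Atpif1, the inhibitor of ATP synthase, and Cyc1, the cytochrome c1 subunit of complex III. For Cyc1 the 12 libraries ranged from 105 to 152 FPKM, with the lowest value in WT replicate 1.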

How the data were processed

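Bulk RNA sequencing was available for 12 libraries in 6 groups of 2. Per the submitters' processing notes and the study's methods, the authors aligned reads with STAR 2.7.8a to GRCm38 and estimated gene levels with RSEM 1.3.3, which divides reads that fit several genes by estimate. The deposited values are FPKM with 1 column per library. The depth in reads is unknown, so no counting interval is given, and 4 rows that are not mouse genes were left out.

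Genes with at least 1 FPKM in at least 2 libraries were transformed to log2(FPKM + 1), which understates changes of low genes, and fitted as 6 group means with limma 3.58.1 in R 4.3.3 (trended variance, 6 residual and 3.39 prior degrees of freedom, two-sided moderated tests). Adjustment followed Benjamini and Hochberg over all genes, for each of 12 comparisons alone. The fit was tested on simulated data, of which no result is used here. The simulated libraries varied independently, unlike the same-numbered libraries described next. The RA and no RA libraries of the same genotype and number were checked for pairing: over all genes, their deviations from the group means had correlations of 0.398 to 0.578, in each genotype above 0.1, so a fit with these pairs as a block is given where it changed a call. The pairing comes from the numbers in the sample titles. Across genotypes these correlations were 0.0795 to 0.452, above 0.1 in 10 of 12 pairs of groups, so this block is named only where it changed a call.

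The members, the lists and the comparisons were chosen with earlier results of these data known. Named genes were every mitochondrial-encoded member, called members, the highest and lowest member of each complex, isoform families, the Sdh genes, Cycs, and the member with the smallest p in each complex for the 3 averaged comparisons. Ndufc1, Ndufc2, Ndufb4c, Gm13841, the gene models close in sequence to mitochondrial DNA and the members listed for not overlapping were chosen after their values were seen. Alternatives were other pseudocounts, filters and scalings, array weights, replicate blocks, each library left out, and fits restricted to the groups compared. Gene positions come from the RefSeq annotation of GRCm38.p6. No sequence is printed, as no sequence table was used here. Figures were drawn with matplotlib 3.10.9.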

Additional observations from a re-analysis of the deposited data

Results flagged for a closer look

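The summed FPKM of complex I moved in opposite directions with RA in the genotypes, which was not tested as a difference of sums. In WT it was higher with RA by 832 and 155 FPKM in replicates 1 and 2, in BATF-KO by 207 and 84 FPKM, and in RARα-KO the differences were -39 and -98 FPKM. The complex I assembly factors differed by 24.1 and 1.3 FPKM in WT, by 14.5 and 11.2 FPKM in BATF-KO and by -3 and -3.9 FPKM in RARα-KO. Complex II differed by 65.8 and 13 FPKM in WT, by 32.2 and 10.1 FPKM in BATF-KO and by -1.3 and -18.1 FPKM in RARα-KO. For single members the difference of the RA effect was called for 0 of 102 in limma, with 1 at an unadjusted p under 0.05 for RARα-KO and 0 for BATF-KO. With the RA and no RA libraries paired it was again called for 0, with 14 and 5 at an unadjusted p under 0.05 (8.73% and 5.21% of all genes). With 2 libraries per group no group could be searched for a library far from the others.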

How the results depend on the processing

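Outside the 3 RARα-KO comparisons 0 members were called to begin with, so agreement between fits says little there. The count of members called kept within 1.5 times its value in 263 of 269 alternative fits. In the 3 RARα-KO comparisons it was 3, and 2 to 3 with each library left out, and every other comparison had 0 with any library left out. It was 1 for RARα-KO without RA when only the compared libraries were fitted, where Cox7a2 and Cox7a2l had adjusted p-values of 0.0774 and 0.172. With the replicate block within genotype it was 1 for RA in WT, 1 for RA in BATF-KO and 2 for RA averaged. With the replicate block across genotypes, where 10 of 12 correlations between same-numbered libraries were above 0.1, it was 6 for RARα-KO averaged, with Atp5j, Ndufv3 and Ndufc2 added (9.96% of all genes called), and 1 for RA averaged (1.02%). Cycs in RARα-KO averaged turned to -0.054 and -0.039 without RARα-KO replicate 2 and RARα-KO+RA replicate 2 (range with each library left out -0.054 to 0.2), and mt-Atp6 there to 0.0061 without RARα-KO replicate 2 (range -0.45 to 0.0061). Neither was called in any of these fits. Without a filter Cox7a2l missed the threshold with RA (adjusted p = 0.0603), and the cause was not tested. Scaling alternatives moved the median of all genes by 0.057 or less. Groups of 2 libraries limit every comparison, and the nuclear-encoded median differed between replicates by up to 0.29 on the log2 scale.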

Other observations

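Beside Gm13841, 2 further predicted pseudogenes had among the highest rises of all genes in RARα-KO, and they are given as values only, chosen after they were seen. Gm6969 was at 0 to 0.64 FPKM over the 8 WT and BATF-KO libraries and reached 297 to 464 FPKM over the 4 RARα-KO libraries. For Gm8210 the same ranges were 0 to 0.18 FPKM and 257 to 286 FPKM. Whether either shares reads with a member was not tested. The 16 gene models with pseudogene symbols of the member families reached at most 7.23 FPKM in any library, except Ndufb1-ps at 34.0 to 49.2 FPKM, which the files describe as the B1 subunit of complex I.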
